A study of Danio rerio with 4 samples.

Results

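Rods are the photoreceptors of dim light, and the genes described here are 10 zebrafish (Danio rerio) genes of rod phototransduction, rod outer segment structure and rod identity: rho, gnat1, gnb1b, pde6a, pde6b, saga, sagb, rom1b, nr2e3 and nrl. They were taken by symbol from a table of 23236 rows of read counts, where each of the 10 stood on 1 row. All 10 also passed the filter on low counts, which left 20097 genes for testing. RNA came from whole embryos of the AB strain at 7 days post fertilisation, bred by crossing tubgcp6+/- fish and sorted by genotype. The 2 groups were tubgcp6 mutants and their siblings, with 2 libraries each, labelled as biological replicates; neither group had any further treatment. The product of tubgcp6 is part of the gamma-tubulin ring complex, from which microtubules grow. The lesion in tubgcp6, the genotypes pooled as siblings, the number of embryos per library and any sharing of clutches between groups were not stated. The p-values therefore set each difference only against the spread between these libraries, estimated with help from all genes tested.

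In a rod, light turns rhodopsin on, rhodopsin activates the G protein transducin, and transducin switches on a phosphodiesterase that removes cyclic GMP. Cyclic GMP-gated channels then close and the cell hyperpolarises; rhodopsin kinase and arrestin end the response. Rhodopsin, transducin and the phosphodiesterase sit in or on the stacked membrane discs of the outer segment. In mouse, the transcription factors Nrl and Nr2e3 direct precursors to the rod fate and hold cone genes down. Zebrafish larvae of this age have retinas rich in cones, with rods among them. No sequence of these genes is shown.

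Reads assigned to genes totalled between 17074352 and 17833761 in the mutant libraries and between 14246582 and 20652276 in the sibling libraries. The targeted gene, tubgcp6, was at 29.7 ± 0.639 CPM (CPM is counts scaled to a common library total, here with TMM) in mutants, against 37.1 ± 2.59 CPM in siblings (SD, n = 2 each). It fell by 0.33 on the log2 scale, with an edgeR adjusted p of 0.0123. That call ended in DESeq2 (adjusted p = 0.0521) and in edgeR without sibling replicate 2 (log2 fold change -0.25, adjusted p = 0.267). Markers of heart, liver, fast muscle, lens, exocrine pancreas, intestine, neurons, cartilage, skin, red cells and pituitary were read in every library. Of those 11 markers, 6 were lower and 3 higher in mutants. By the same edgeR test, 21% of all genes tested were lower and 22.9% higher.

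Rod genes were far lower in mutants. Of the 10 rod genes, 9 fell and 1 rose by the quasi-likelihood F-test of edgeR, with p-values adjusted by Benjamini-Hochberg over all genes tested and a threshold of 0.05; adjusted p-values below are from this test unless DESeq2 is named. Of all 20097 genes tested, 21% fell and 22.9% rose by the same rule. The median log2 fold change (mutant over sibling throughout) of the 10 genes was -2.65, beside 0.01 over all genes tested. All 9 falls were at least 2-fold, which 4.32% of all genes tested reached. In these 9 genes both mutant libraries lay below both sibling libraries, and in gnb1b both lay above; of all genes tested 35.1% lay below and 36.6% above in that way. Together the 9 genes gave 79.3 ± 9.49 CPM in mutants, against 689 ± 47.9 CPM in siblings (SD, n = 2 each), an 8.69-fold lower sum. Most of that sum was rho, at a mean of 52.35 CPM in mutants and 527.5 CPM in siblings. RNA from whole embryos cannot tell fewer rods apart from less RNA per rod.

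**Figure D1:**
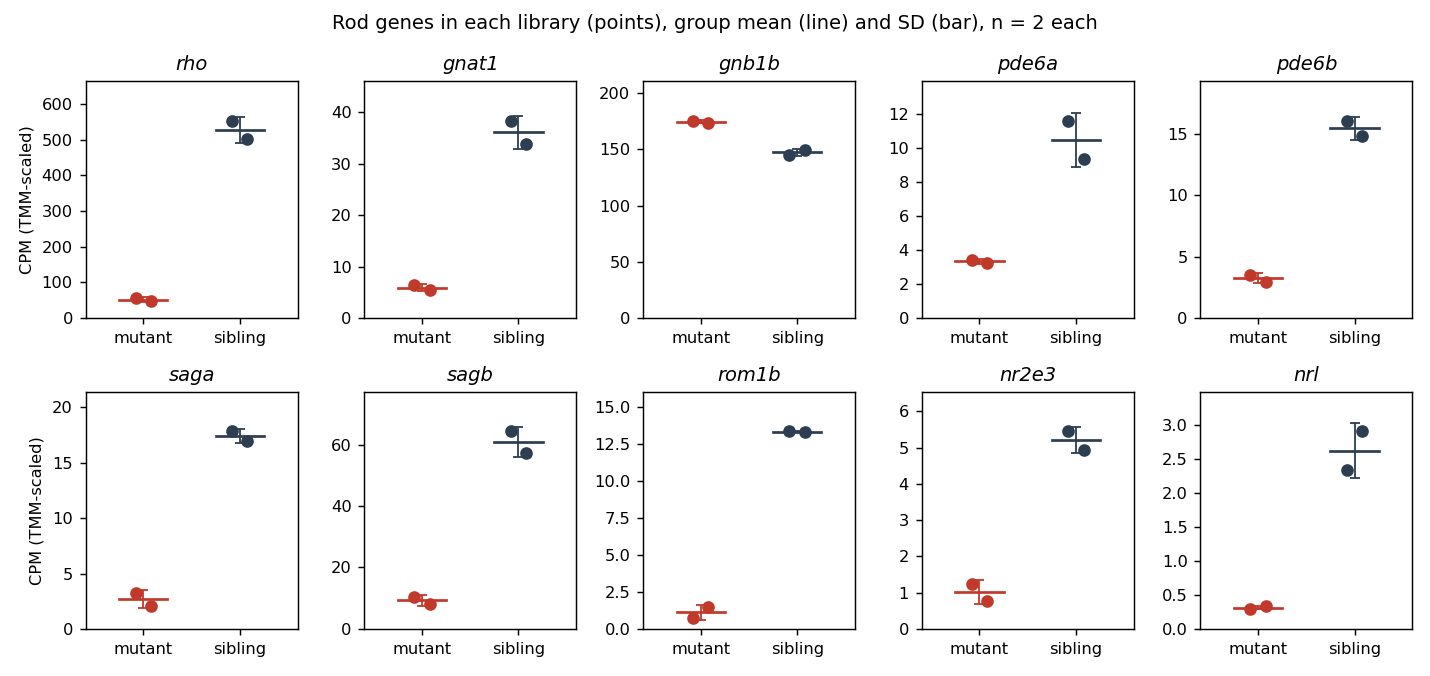
Level of each rod gene in CPM (vertical axis, from 0, a scale for each gene) in mutants and siblings; points are libraries, lines are means and bars are SD, n = 2 each. Both mutant libraries sit below both sibling libraries in every panel except gnb1b, where they sit above at 176 and 174 CPM against 145 and 150 CPM.

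Rod opsin, the protein part of rhodopsin, is encoded by rho. The gene had 956 and 875 counts in the mutant libraries, against 7812 and 10347 in the sibling libraries. Scaled, this was 56.5 and 48.2 CPM in mutants, against 553 and 502 CPM in siblings. Replicates lay close together and the groups far apart. The log2 fold change was -3.33 ± 0.10 (SE), or 10.1-fold lower in mutants, with an edgeR adjusted p of 1.45e-21. Only 0.174% of all genes tested had a log2 fold change as low as that of rho, or lower.

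The genes gnat1 and gnb1b, for subunits of transducin, the G protein that rhodopsin activates, moved in different directions. The alpha subunit gene gnat1 was at 6.44 and 5.45 CPM in mutants, against 38.4 and 33.8 CPM in siblings. It was lower in both mutant libraries, with a log2 fold change of -2.60 ± 0.14 (SE; edgeR adjusted p = 1.3e-15). The gene gnb1b encodes a beta subunit that, as Gnb1 in mammals, serves rod transducin but is also made in many other cell types. It was at 176 and 174 CPM in mutants, against 145 and 150 CPM in siblings, a log2 fold change of 0.24 ± 0.08 (edgeR adjusted p = 0.0171). The mutant libraries lay above the sibling libraries by a small margin, and the part of rods in the gnb1b level was not tested. The call ended without sibling replicate 1 (log2 fold change 0.22, adjusted p = 0.235) and without sibling replicate 2 (0.27, adjusted p = 0.161).

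The other genes of G protein beta subunits show what gnb1b was set among. Its nearest paralogue, gnb1a, was at 241 ± 4.25 CPM in mutants, against 253 ± 8.20 CPM in siblings (SD, n = 2 each), a log2 fold change of -0.07 that did not pass the test. Within a library there were 0.740 and 0.713 gnb1b counts per gnb1a count in mutants, against 0.561 and 0.606 in siblings. Because reads of such similar copies can be split unevenly, their sum is given too: 413 and 417 CPM in mutants, against 404 and 397 CPM in siblings. Also short of the threshold were gnb2 (-0.03), gnb4a (-0.10) and gnb4b (0.07). The cone beta subunit genes gnb3a (-1.37) and gnb3b (-1.31) fell, as did gnb5a (-0.59) and gnb5b (-0.998), whose mammalian counterpart Gnb5 works with the regulator RGS9 in turning transducin off.

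The rod phosphodiesterase has a pair of catalytic subunits. The gene pde6a, for the alpha subunit, was at 3.43 and 3.25 CPM in mutants, against 11.6 and 9.36 CPM in siblings. The gene pde6b, for the beta subunit, was at 3.55 and 2.97 CPM in mutants, against 16.1 and 14.8 CPM in siblings. Neither overlapped between groups. The log2 fold change was -1.63 ± 0.20 for pde6a and -2.24 ± 0.18 for pde6b (SE), with edgeR adjusted p-values of 8.98e-08 and 2.04e-11. Of the 9 rod genes that fell, pde6a had the smallest change, yet only 1.64% of all genes tested were as low. There were 1.03 and 0.915 pde6b counts per pde6a count in mutants, against 1.38 and 1.58 in siblings, so the share of pde6b was lower in both mutant libraries.

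Arrestin binds phosphorylated rhodopsin and stops it from signalling; zebrafish has a pair of rod arrestin genes. The gene saga was at 3.25 and 2.09 CPM in mutants, against 17.9 and 17.0 CPM in siblings. The gene sagb was at 10.5 and 8.04 CPM in mutants, against 64.3 and 57.3 CPM in siblings. Their falls were alike: the log2 fold change was -2.71 ± 0.19 for saga and -2.71 ± 0.12 for sagb (SE; edgeR adjusted p = 9.55e-13 and 3.87e-17). The number of sagb counts per saga count overlapped between groups, at 3.24 and 3.84 in mutants, against 3.60 and 3.37 in siblings. Their sum, which does not depend on how reads were split between the copies, was 13.8 and 10.1 CPM in mutants, against 82.2 and 74.2 CPM in siblings.

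The gene rom1b encodes a tetraspanin of the disc rim and had the largest fall of the 10 genes. Its counts were 13 and 27 in the mutant libraries, against 189 and 275 in the sibling libraries, or 0.768 and 1.49 CPM in mutants, against 13.4 and 13.3 CPM in siblings. The mutant libraries differed from each other, but both were far below the siblings. The log2 fold change was -3.54 ± 0.24 (SE; edgeR adjusted p = 4.03e-13), and it ranged from -4.11 to -3.17 when single libraries were left out. Its copy rom1a, which had 42 and 21 counts in the mutant libraries against 205 and 235 in the sibling libraries, fell by 2.83 on the log2 scale; its log2 fold change was -3.46 without mutant replicate 1 and -2.36 without mutant replicate 2. The sum of both genes was 3.25 and 2.64 CPM in mutants, against 27.9 and 24.7 CPM in siblings, an 8.93-fold lower level.

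The transcription factors of rod identity were read at low counts and fell too. The nuclear receptor gene nr2e3 had 21 and 14 counts in the mutant libraries, against 77 and 102 in the sibling libraries. It was at 1.24 and 0.771 CPM in mutants, against 5.45 and 4.95 CPM in siblings, with a log2 fold change of -2.36 ± 0.30 (SE; edgeR adjusted p = 1.8e-07). The leucine zipper gene nrl had 5 and 6 counts in the mutant libraries, against 33 and 60 in the sibling libraries. Its level was 0.296 and 0.330 CPM in mutants, against 2.34 and 2.91 CPM in siblings, with a log2 fold change of -3.06 ± 0.44 (SE; edgeR adjusted p = 1.62e-06). Its ratio of scaled counts, mutant over sibling, was 0.117 with a 95% binomial interval of 0.0565 to 0.219. That interval, like the binomial intervals given below, covers counting error only and leaves out the spread between libraries. In the RefSeq assembly GRCz12tu, nr2e3 lies on chromosome 25, as tubgcp6 does, and the other 9 genes lie on other chromosomes. The distance between nr2e3 and tubgcp6 was not measured, and its part in the fall was not tested.

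**Figure D2:**
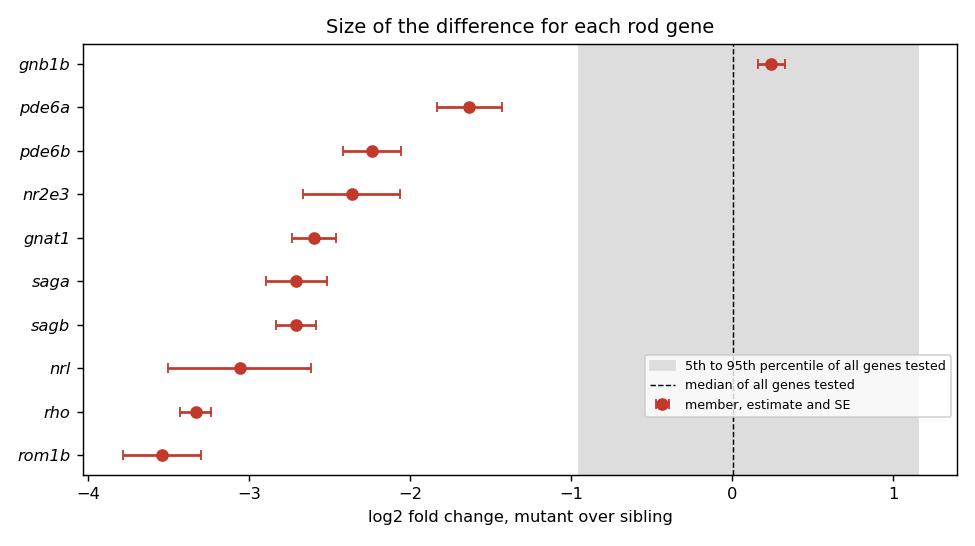
Log2 fold change, mutant over sibling, of each rod gene (points, with SE as bars) against the spread of all 20097 genes tested (grey band, 5th to 95th percentile, -0.96 to 1.15; dashed line, median). From gnb1b at 0.24 the genes run down to rom1b at -3.54, and the 9 genes that fell lie outside the band.

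The 9 falls were not of 1 size. In order from the deepest they were rom1b, rho, nrl, sagb, saga, gnat1, nr2e3, pde6b and pde6a. Each neighbour in that order lay within the larger SE of the next, except pde6b and pde6a. Ratios taken inside a library do not depend on scaling, and they set rho apart from some of its partners. There were 8.77 and 8.84 rho counts per gnat1 count in mutants, against 14.4 and 14.9 in siblings. Per pde6a count there were 16.5 and 14.8 rho counts in mutants, against 47.6 and 53.6 in siblings. Of all counts of the 9 genes, rho made up 65.7% and 66.4% in mutants, against 76.6% and 76.6% in siblings. By contrast, rom1b counts per 100 rho counts overlapped between groups, at 1.36 and 3.09 in mutants, against 2.42 and 2.66 in siblings. These ratios are given as values, without a test; the exact permutation test over 2 libraries against 2 has a smallest two-sided p of 0.333.

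Other genes of photoreceptor signalling were listed as rod partners, and nearly all of them fell. This list, like the others, was chosen with earlier results of these data known, so its counts describe and do not test. The list was not limited to genes made in rods alone. Of 17 partners listed, 16 had a row and were tested. Of these, 15 fell, 0 rose and 1 was short of the threshold, where 21% of all genes tested fell and 22.9% rose. Their median log2 fold change was -1.72, beside 0.01 over all genes tested. Fitted values of the transducin gamma gene gngt1 (-2.24), the rhodopsin kinase gene grk1a (-2.90) and the guanylate cyclase activator gene guca1b (-3.37) were deep. So were those of the cyclic GMP-gated channel genes cnga1a (-2.92), cnga1b (-1.98) and cngb1a (-1.83), which encode alpha and beta subunits. The rhodopsin-like gene rhol, with 3 counts in each mutant library against 51 and 66 in the sibling libraries, had a ratio of scaled counts of 0.0508 (95% binomial interval 0.0183 to 0.114). The gene guca1b, with 6 and 2 counts in the mutant libraries against 43 and 41 in the sibling libraries, had a ratio of 0.0943 (0.0394 to 0.195). Its log2 fold change was -4.38 without mutant replicate 1 and -2.75 without mutant replicate 2.

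Shallower falls were those of the recoverin genes rcvrna (-1.61), rcvrn2 (-1.58) and rcvrn3 (-1.14), calcium sensors of photoreceptors, and of the inhibitory phosphodiesterase genes pde6gb (-1.46) and pde6ga (-0.94). The exchanger gene slc24a1 (-0.99), whose product carries calcium out of the outer segment, and the guanylate cyclase gene gucy2f (-0.91) fell by similar amounts. The fourth recoverin gene, rcvrnb, had 42 and 53 counts in the mutant libraries, against 26 and 37 in the sibling libraries. Its log2 fold change of 0.58 did not pass the threshold (edgeR adjusted p = 0.117). Mean sibling levels were 165 CPM for rcvrn2 and 248 CPM for rcvrn3, against 36.1 CPM for gnat1 and 182 CPM for the cone gene gnat2. The part of rods in the recoverin levels was not tested. Among the partners, the calls that ended under an alternative were those of pde6ga, slc24a1 and gucy2f. In DESeq2 their adjusted p were 0.0959, 0.0619 and 0.0818. Without sibling replicate 2, edgeR gave an adjusted p of 0.144 for pde6ga and 0.08 for gucy2f. Without mutant replicate 1 it gave 0.0505 for slc24a1 and, for gucy2f, a log2 fold change of -0.49 with an adjusted p of 0.189. Without mutant replicate 2 the value of gucy2f was -1.56.

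Genes of the outer segment that rods and cones share also fell, by less at the median. Of 25 such genes with a row, 24 were tested. Of these, 21 fell, 0 rose and 3 missed the threshold, and their median was -1.34. The log2 fold changes of the list ran from -2.32 to -0.15, so the deepest lay in the range of the rod genes that fell. For this list and the cone list, the shares over all genes tested were 21% lower and 22.9% higher. The rim protein genes prph2a (-1.61) and prph2b (-1.57), the retinoid transporter gene abca4b (-1.58) and the disc-forming prominin gene prom1b (-1.20) had the smallest p. Cone genes, the group most like the rod genes, fell too: of 26 with a row, 23 were tested, 20 fell, 0 rose and 3 missed the threshold, and their median was -1.19. The summed level of the 26 cone genes was 1583 and 1224 CPM in mutants, against 3519 and 3407 CPM in siblings. The smallest p were those of the cone transducin gamma gene gngt2a (-2.20), gnb3b (-1.31), the green opsin gene opn1mw1 (-1.47) and the ultraviolet opsin gene opn1sw1 (-1.42).

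Set against cone counterparts in the same library, rod opsin, transducin alpha, arrestin, catalytic phosphodiesterase and kinase genes were lower in mutants, whereas transducin gamma and inhibitory phosphodiesterase genes depended on the pair compared. Per 100 cone opsin counts, mutants had 5.90 and 6.60 rho counts and siblings had 25.8 and 24.1; the ratio of the group means was 0.251. For the transducin alpha subunits there were 6.74 and 7.54 gnat1 counts per 100 gnat2 counts in mutants, against 21.2 and 18.4 in siblings (ratio 0.36). The rod and cone arrestins, catalytic phosphodiesterases and kinases followed the same direction. Per 100 counts of arr3a plus arr3b there were 13.7 and 12.6 of saga plus sagb in mutants, against 35.4 and 31.9 in siblings. Per 100 counts of pde6c there were 15.7 and 15.9 of pde6a plus pde6b in mutants, against 39.3 and 36.4 in siblings. Per 100 counts of grk7a plus grk7b there were 9.31 and 10.5 of grk1a in mutants, against 47.0 and 46.4 in siblings. The groups did not overlap in any of these 5 ratios.

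The transducin gamma genes gave no such split when gngt1 was set against gngt2a alone: mutants had 19.8 and 21.5 counts per 100, against 21.7 and 20.5 in siblings, and the groups overlapped. Against gngt2a plus gngt2b it was 6.53 and 6.90 in mutants, against 10.2 and 10.2 in siblings. For the inhibitory phosphodiesterase subunits, pde6ga per 100 pde6ha counts overlapped too, at 2.23 and 3.54 in mutants, against 2.54 and 2.97 in siblings. With pde6gb added to pde6ga it was 20.1 and 29.9 in mutants, against 33.1 and 33.8 in siblings. These ratios are given as values, without a test.

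**Figure D3:**
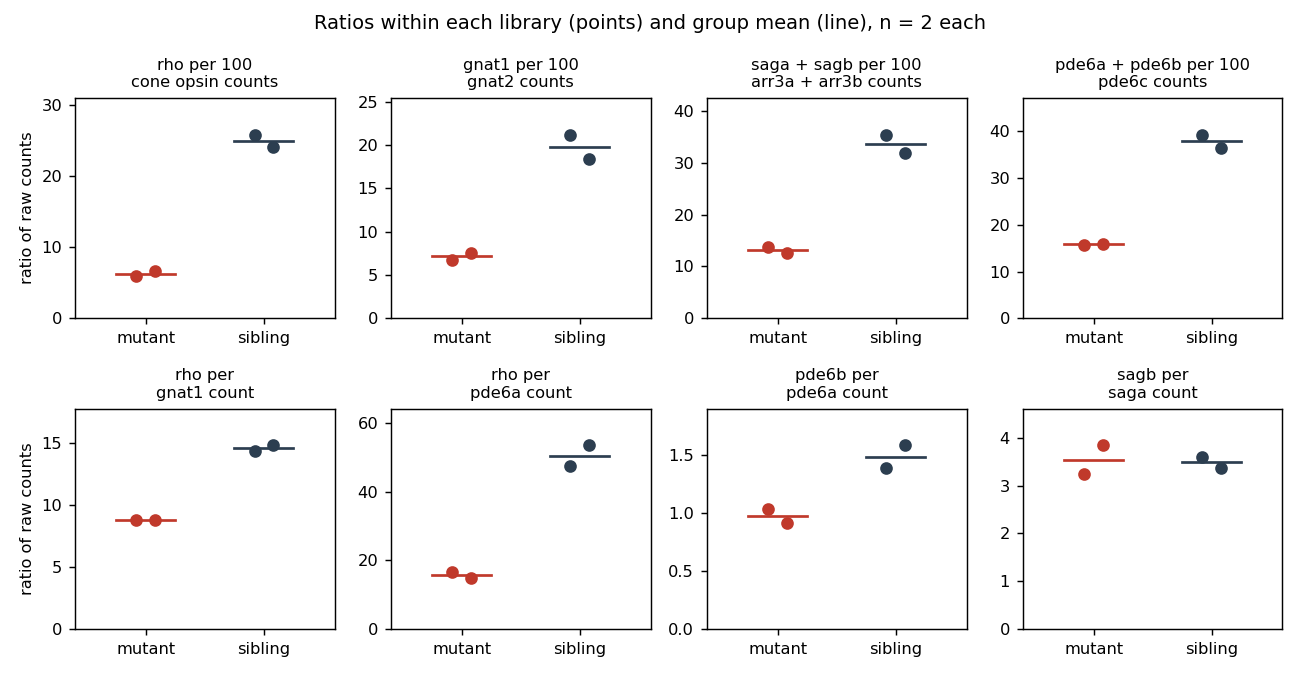
Ratios of raw counts within each library (vertical axis, from 0) in mutants and siblings; points are libraries and lines are means, n = 2 each. The upper row sets rod genes against their cone counterparts and the lower row sets rod genes against each other. The groups stand apart in every panel shown except sagb per saga, where 3.24 and 3.84 in mutants overlap 3.60 and 3.37 in siblings. Not shown are gngt1 per gngt2a, pde6ga per pde6ha and rom1b per rho, in which the groups overlapped.

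Transcription factors of photoreceptors fell in most cases. The RNA was from whole embryos, and the part of photoreceptors in the levels of these genes was not tested. Of 19 listed genes, 15 fell, 1 rose and 3 missed the threshold, and their median was -0.87. By the same rule 21% of all genes tested fell and 22.9% rose. The homeobox genes crx (-1.65), otx5 (-1.21) and otx2b (-1.10), which act in photoreceptors or their precursors, fell, and so did neurod1 (-1.63), six7 (-1.73) and six6b (-1.47). The others that fell were thrb (-0.77), tbx2a (-0.61), tbx2b (-0.25), foxq2, rorb (-1.24), roraa (-0.48), rorab (-0.87), samd7 (-1.85) and rxrgb (-0.36). Of these, thrb encodes a thyroid hormone receptor that acts in red cones, among other cells. The mutant libraries had 4 and 2 counts of foxq2, against 10 and 42 in the sibling libraries. Its ratio of scaled counts was 0.114 (95% binomial interval 0.0401 to 0.266, for counting error only). The log2 fold change of foxq2 was -3.07, or -3.68 without mutant replicate 1, and without sibling replicate 2 it was -2.00 (edgeR adjusted p = 0.102). The 1 gene that rose was prdm1a (0.71), whose mouse counterpart Prdm1 keeps photoreceptor precursors from becoming bipolar cells. Short of the threshold were otx2a (-0.03), samd11 (-0.17) and rxrga (-0.04).

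The calls of tbx2b and rxrgb ended under several alternatives. In DESeq2 their adjusted p were 0.105 and 0.136. With edgeR, tbx2b had an adjusted p of 0.0952 without mutant replicate 1, 0.31 without sibling replicate 1 and 0.138 without sibling replicate 2. For rxrgb it was 0.285 without mutant replicate 2, with a log2 fold change of -0.19 (-0.56 without mutant replicate 1), and 0.234 and 0.0827 without sibling replicates 1 and 2.

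The pineal organ, a light-sensing organ of the brain, also holds photoreceptors, and its genes were mostly short of the threshold. Of 8 listed genes, 6 stood on a single row. Of these, 1 fell, 0 rose and 5 missed the threshold, and their median was -0.12. The share that fell, 16.7%, was near the 21% of all genes tested. Some counts were low: parapinopsina had 14 and 10 in the mutant libraries, against 5 and 12 in the sibling libraries. The gene that fell was aanat2 (-1.27), for the enzyme that times melatonin synthesis, at 1.99 ± 0.0615 CPM in mutants, against 4.82 ± 0.107 CPM in siblings (SD, n = 2 each). The melatonin synthesis genes asmt (-0.25) and asmt2 (0.02), the pineal opsin genes parapinopsina (0.48) and parapinopsinb (0.22), and bsx (-0.65) did not pass. The summed level of the 6 genes was 20.4 and 17.5 CPM in mutants, against 19.5 and 24.4 CPM in siblings, so the groups overlapped. The genes exorh and parietopsin stand on more than 1 row and were not used here.

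Lists of the other retinal cells had medians nearer to 0, with single genes as low as rod genes. The shares over all genes tested were 21% lower, 22.9% higher and 4.32% lower at least 2-fold. Of 11 bipolar cell genes, 9 fell and 2 missed the threshold (median -0.65), and the smallest p were those of vsx1 (-1.65), gnao1b (-0.79), nyx (-1.57) and pcp4l1 (-0.96). Of 18 genes of ganglion, amacrine and horizontal cells, 13 fell, 1 rose and 4 missed the threshold (median -0.73), with pou4f2 (-1.29), rbpms2b (-0.75), tfap2b (-0.81) and prox1a (-0.73) having the smallest p. In that list 6 genes fell at least 2-fold. Its deepest falls, singled out after their values were seen, were those of the ganglion cell factor gene atoh7 (-2.22) and the horizontal cell connexin genes cx52.6 (-2.13), cx52.9 (-2.11) and cx52.7, all at low counts and in the range of the rod genes. For cx52.7, with 3 and 0 counts in the mutant libraries against 11 and 13 in the sibling libraries, the ratio of scaled counts was 0.124 (95% binomial interval 0.0239 to 0.408). The value of atoh7 was -1.58 without sibling replicate 1 and -2.79 without sibling replicate 2. The call of cx52.6 ended in DESeq2 (adjusted p = 0.0625) and in edgeR without mutant replicate 2 (log2 fold change -1.58, adjusted p = 0.0736) or sibling replicate 1 (-1.51, adjusted p = 0.16); its value was -2.95 with mutant replicate 1 left out and -2.71 with sibling replicate 2 left out. For cx52.7 the call ended in DESeq2 (adjusted p = 0.0543) and in edgeR without mutant replicate 2 (-1.92, adjusted p = 0.0678), and without sibling replicate 2 it was not tested for want of counts. Of 12 retinal progenitor genes, 8 fell, 3 rose and 1 missed the threshold (median -0.52). Among them pax6a (-0.61) and pax6b (-0.91) fell, while stmn1a (1.05) and fabp11a (0.95) rose. Many of these genes are also used in brain or other tissues.

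Genes of the retina's supporting cells moved in both directions. Of 8 Müller glia genes, 4 fell, 2 rose and 2 missed the threshold (median -0.24). Over all genes tested, 21% fell and 22.9% rose, so 2 of 8 was near the share that rose. Glutamate transporter genes slc1a3a (-0.74) and slc1a2b (-0.44) and the retinoid-binding gene rlbp1a (-0.88) fell, and the water channel gene aqp1a.1 (0.51) rose. Of 11 genes of the retinal pigment epithelium, the layer that serves the outer segments, 0 fell, 6 rose and 5 missed the threshold (median 0.30). Those 5 were rpe65a (0.11), rgrb (0.15), mertka (0.05), lrata (-0.11) and best1 (-0.36). Pigment cell genes pmelb (0.88), pmela (0.49) and tyrp1b (0.46), which skin melanophores use as well, had the smallest p, together with the retinol uptake gene stra6 (0.40), a call that ended without sibling replicate 2 (log2 fold change 0.31, edgeR adjusted p = 0.106). The summed level of the 11 genes was 1064 and 1038 CPM in mutants, against 855 and 786 CPM in siblings. Pigment cell genes made the largest parts of that difference. Mean levels were 270 CPM in mutants against 196 CPM in siblings for tyrp1b, and 246 against 175 CPM for pmela. The part of these other cells in the levels of the rod genes was not tested.

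**Figure D4:**
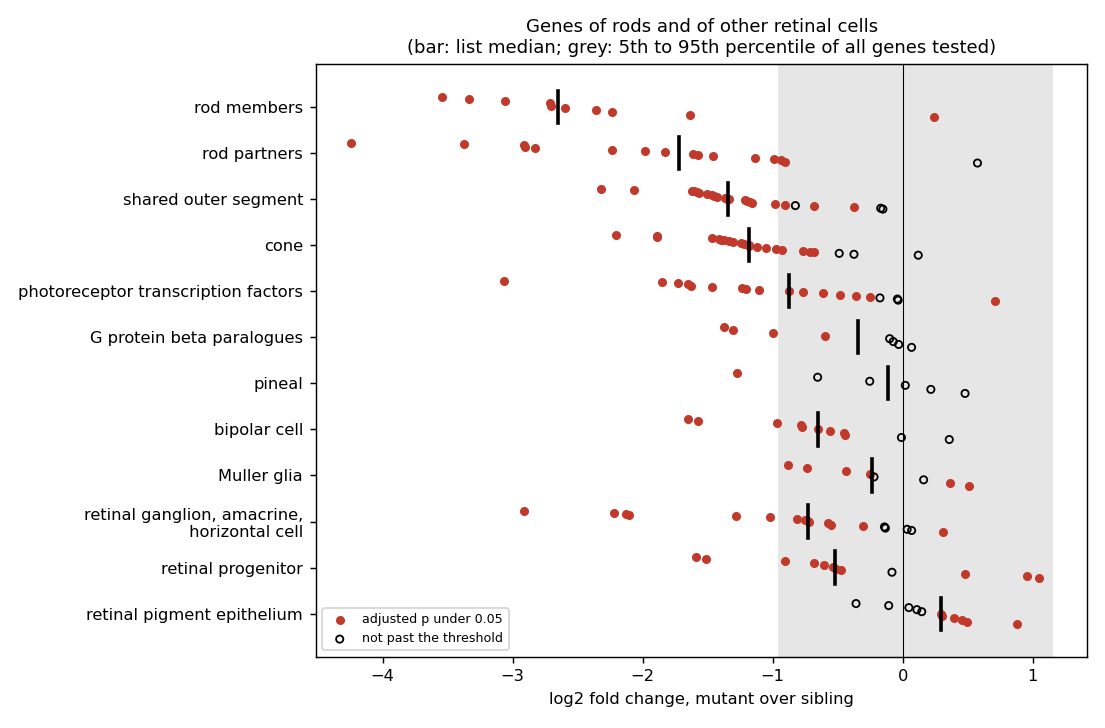
Log2 fold change, mutant over sibling (horizontal axis), of every tested gene of 12 lists; filled points passed an adjusted p of 0.05, open points did not, bars are list medians and the grey band is the 5th to 95th percentile of all genes tested. The medians run from -2.65 for the 10 rod genes to 0.30 for the retinal pigment epithelium genes, with partners at -1.72 and cone genes at -1.19.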

How the data were processed

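The authors deposited raw read counts per gene, a column per library, not normalized. Per the submitters' processing notes, the build named was GRCz11 and the tools named were DESeq2 1.26.0, featureCounts 2.0.1, fastp 0.23.2, R 4.2.2 and STAR 2.7.10a. Their roles, the annotation, strand use and the handling of multi-mapping reads were not given in the sources used here. Reads of overlapping genes or near copies may therefore be shared.

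The test of counts used edgeR 4.0.16 under R 4.3.3: filterByExpr at defaults (3139 rows removed), TMM scaling, glmQLFit (legacy=FALSE) and glmQLFTest, mutants against siblings, with Benjamini-Hochberg adjustment over 20097 genes and a threshold of 0.05. SE is the absolute log2 fold change over the root of F. The common biological coefficient of variation was 7.19%. Alternatives were DESeq2 1.42.0, RLE and upper-quartile scaling, no filter, each library left out, and a replicate block.

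Members and lists were chosen with earlier results of these data known, and 181 of 194 list entries matched a single row. Names on more than 1 row (125) were left out of the lists and of the search for genes near rho. Their rows stayed in the fit, so the 20097 genes tested are rows and can include repeated names. Genes named are all members, all genes of the partner, transcription factor, beta subunit and pineal lists, up to 4 genes of smallest p of each other list, and the 5 tested genes (symbol assigned, mean log2 CPM 1 or more) whose centred log2 CPM profile lay nearest that of rho. Genes overlapping a member, and 4 others said to be singled out, were named after their values were seen. So were the retinal pigment epithelium genes short of the threshold. Chromosomes and overlapping neighbours come from a RefSeq table of GRCz12tu. Overlaps were found from its start and end positions, which are not printed here. On simulated counts of 20097 genes, 200 genes with a mean CPM over 1 were changed, 50 at each size. Of genes changed 1.5-fold, 60% were called, with 90% at 2-fold and 100% at 4-fold, and 6.42% of calls were unchanged genes. Far more genes were called in the data (4226 lower and 4595 higher), so these rates need not hold there. They do not cover genes under 1 CPM.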

Additional observations from a re-analysis of the deposited data

How the results depend on the processing

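The 9 rod genes that fell kept their direction and their call under all 9 alternatives run; their log2 fold changes then ranged from -3.46 to -3.22 for rho and from -1.80 to -1.49 for pde6a. Of 90 values of the 10 rod genes under alternatives, 88 kept direction and call, and the other 2 were gnb1b without a sibling library. The count of rod genes that rose was 0 to 1 with 1 library left out. Over all genes, 2425 to 4680 were lower and 2977 to 4840 higher with 1 library left out; the lowest of these counts came without sibling replicate 2. DESeq2 called 2987 lower and 3274 higher, and 12 of the 16 rod partners lower in place of 15.

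The replicate numbers name libraries and are not stated to pair them; the differences between replicates 1 and 2 in the groups had a correlation over 18204 genes of 0.041. With a replicate block, 4521 genes were lower and 4828 higher, and 9 rod genes fell and 1 rose. Genes short of the threshold changed sign in places. With 1 library left out, the log2 fold change ranged from -0.25 to 0.14 for otx2a (0.12 without mutant replicate 1), from -0.070 to 0.004 for gnb2, from -0.23 to 0.012 for gnb4a, from -0.54 to 0.25 for asmt and from -0.12 to 0.22 for asmt2, and reached 0.026 for rxrga. For asmt2 it was -0.0084 with upper-quartile scaling. Without mutant replicate 1, bsx passed the threshold (-1.21, edgeR adjusted p = 0.0228). The cause of these shifts was not tested. At 11 counts in mutants, nrl sets the limit of what depth can resolve among the 10 genes.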

Other observations

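The genes whose profile over the 4 libraries lay nearest that of rho were genes of the lens. Among 15378 candidates the 5 nearest were lim2.5, crygn1, cryaa, crygm7 and mipb, at root mean square distances of 0.114 to 0.193 on the log2 CPM scale. Of the other rod genes the nearest, sagb, was at 0.318. The lens genes were the nearest of 15378 and sagb the nearest of a short list. Their distances therefore cannot show that rho follows lens genes more closely than rod genes. The alpha-crystallin gene cryaa was at 11.6 and 8.54 CPM in mutants, against 82.6 and 82.0 CPM in siblings, with a log2 fold change of -3.04 ± 0.12 (SE). The lens membrane gene lim2.5 changed by -3.56 ± 0.19 and the lens water channel gene mipb by -3.00 ± 0.10. The crystallin genes crygn1 (-3.14 ± 0.18) and crygm7 (-3.44 ± 0.42) belong to a family whose copies can share reads. With 4 libraries in 2 groups, this measure depends on the sizes of the falls, on scatter between replicates and on depth. A prior count of 2 was added before logs were taken, which shrinks falls at low counts. The rod genes rom1b (-3.54) and nrl (-3.06), with low counts in mutants, lay at 0.397 and 0.386 from rho. The crystallin gene crygm7, with 7 and 4 counts in the mutant libraries, lay at 0.191. The part of the prior count in these distances was not tested.

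In the RefSeq assembly GRCz12tu the span of pde6b overlaps those of slc26a1 and rbp4l, and the strand setting of the counts is not known. The log2 fold change of slc26a1 was -0.40 ± 0.16 and that of rbp4l -0.03 ± 0.13 (SE), smaller in size than that of pde6b. The span of gnb1b overlaps a long non-coding RNA gene, and the other 8 rod genes overlap no annotated gene in that table.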
